A study of Mus musculus with 14 samples.

Results

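The genes Tlx1, Tlx2, Tlx3, Lbx1 and Lbx2 were examined for trimethylation of lysine 27 of histone H3 (H3K27me3) in mouse primary hippocampal neurons with and without knockdown of the long noncoding RNA NeuID. Members were the listed peaks that overlapped the body of any of these 5 genes or the 20 kb on either side of it, and were chosen by position, for genes picked with earlier results of these data in view. There were 33 such peaks among the 23668 peaks of the deposited table. Of these, 18 lay in the windows of Tlx1 and Lbx1 on chromosome 19, 12 in those of Tlx2 and Lbx2 on chromosome 6, and 3 in that of Tlx3 on chromosome 11.

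Chromatin immunoprecipitation with an H3K27me3 antibody was followed by sequencing (ChIP-seq). The labels give the neurons as wild type (WT), and the study's methods describe them as cultured from late-gestation CD1 embryos of mixed-sex litters. The labels give 6 control and 6 NeuID knockdown ChIP libraries, with 1 input library for each condition. Both groups received gapmers, antisense oligomers that pair with an RNA and lead to its cleavage, in lipid nanoparticles. The control cultures received a negative control gapmer and the knockdown cultures a gapmer against NeuID, so the comparison asks how H3K27me3 stood after loss of that RNA.

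The deposited values are group means on the log2 scale of normalized reads, not values per library. No SD, n or new test can therefore accompany any level or difference below, and differences are a description of these libraries. The authors' own p-value and FDR per peak were not used. The number of reads per library is unknown. The overall mean weighted the control mean by 0.5455 at the members with both means above 0, which is the ratio of 6 control to 5 knockdown libraries, 11 in all, whereas the labels list 12. The study's own text gives 5 per group, which equals the knockdown number in that ratio but not the control number. Gene starts of cell type markers were mostly free of listed peaks, and of neuronal markers 1 of 12 was covered (Nefl). Of markers of glia, microglia and vessel cells, 2 of 13 starts were covered (Olig1 and Cldn5). RNA was not analysed here, so these counts do not identify the cells.

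H3K27me3 is placed by Polycomb repressive complex 2 and marks genes that are kept silent, often developmental transcription factors in cells that do not use them. The Tlx genes (T cell leukemia homeobox) and the Lbx genes (ladybird homeobox) encode homeodomain transcription factors of the NK-like class. In each of the pairs Tlx1-Lbx1 and Tlx2-Lbx2, a Tlx gene lies near an Lbx gene on the same chromosome. In the dorsal spinal cord Tlx1 and Tlx3 favour excitatory neurons, while Lbx1 is needed for inhibitory ones and for the migration of muscle precursors into the limb. Tlx1 is also required to form the spleen, and Tlx2 acts in enteric neurons. None of these genes is a known marker of mature hippocampal neurons.

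Reference sequences of places named in the results are shown first, in the build GRCm38 (mm10), with CpG dinucleotides in capitals. The promoters come from RefSeq (GRCm38.p6), where 2 of the 5 genes matched (Tlx1 and Tlx3), and are printed up to the base before the annotated gene start. Lbx1, Tlx2 and Lbx2 had no entry. The Tlx1 promoter (chr19:45150465-45150679, plus strand) is shown because it lies in the peak with the higher mean after knockdown. The centre of the widest peak upstream of Tlx1 (chr19:45142843-45143142, plus strand) is shown because that peak had the lower mean. The 287 bases that part the Tlx1 start peak from the next peak upstream (chr19:45149273-45149559, plus strand) are shown because the peaks on either side had differences of opposite sign. The Tlx3 promoter (chr11:33203590-33203838, minus strand) is shown for comparison, and the last sequence is the centre of the peak beyond Lbx2 whose control mean was listed at 0 (chr6:83090608-83090907, plus strand).
Tlx1 promoter: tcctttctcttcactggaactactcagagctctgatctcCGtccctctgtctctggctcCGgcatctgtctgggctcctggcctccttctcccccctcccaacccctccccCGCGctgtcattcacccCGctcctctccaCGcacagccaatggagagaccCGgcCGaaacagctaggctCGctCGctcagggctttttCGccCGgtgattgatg
Centre of the widest peak upstream of Tlx1: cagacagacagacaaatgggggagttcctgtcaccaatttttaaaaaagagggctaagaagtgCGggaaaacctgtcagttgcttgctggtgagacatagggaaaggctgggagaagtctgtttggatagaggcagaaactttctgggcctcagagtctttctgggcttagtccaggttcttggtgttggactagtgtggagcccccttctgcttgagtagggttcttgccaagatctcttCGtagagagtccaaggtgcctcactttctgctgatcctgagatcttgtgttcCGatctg
Gap before the Tlx1 start peak: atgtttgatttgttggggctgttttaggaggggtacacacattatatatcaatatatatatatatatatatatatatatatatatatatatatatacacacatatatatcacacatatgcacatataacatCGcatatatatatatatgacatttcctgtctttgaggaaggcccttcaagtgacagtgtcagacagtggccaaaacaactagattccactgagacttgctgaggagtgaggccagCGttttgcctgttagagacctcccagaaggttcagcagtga
Tlx3 promoter: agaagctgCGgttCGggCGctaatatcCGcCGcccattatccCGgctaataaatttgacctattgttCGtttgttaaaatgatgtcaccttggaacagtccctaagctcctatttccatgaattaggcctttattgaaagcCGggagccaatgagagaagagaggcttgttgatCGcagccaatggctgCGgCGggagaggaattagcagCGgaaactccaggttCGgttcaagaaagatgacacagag
Centre of the peak beyond Lbx2: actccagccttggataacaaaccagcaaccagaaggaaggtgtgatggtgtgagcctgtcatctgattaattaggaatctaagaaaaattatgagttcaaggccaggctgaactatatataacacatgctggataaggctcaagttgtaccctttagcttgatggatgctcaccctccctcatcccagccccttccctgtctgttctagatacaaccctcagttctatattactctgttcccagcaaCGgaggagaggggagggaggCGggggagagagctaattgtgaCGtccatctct

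The Tlx1 promoter shown held 12 CpG in 215 bases and the Tlx3 promoter 13 in 249. The 300 bases at the centre of the widest peak upstream of Tlx1 held 3, as did the 300 bases beyond Lbx2. The gap held 2 CpG in 287 bases, with a GC content of 35.5% and a run of 45 alternating T and A. Over the full RefSeq window of each promoter, Tlx1 had 16 CpG and Tlx3 18, counts reached by 33.0% and 29.7% of all promoters in that table. Both counts lay above the median of 7 CpG over all promoters in that table, but neither was rare.

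All 5 gene starts lay in a listed peak. No share over all annotated gene starts is given here, so this count and those of other lists are a description only. Lbx1, Tlx2 and Tlx3 were each covered from end to end by 1 peak, whereas 3 peaks covered 95.8% of Tlx1 and 3 peaks covered 88.9% of Lbx2. The peak over Lbx1 ranked 2 by width and 3 by strength among all listed peaks, at 11689 bp, and that over Tlx3 ranked 4 by width and 5 by strength, at 11181 bp. The peaks over the starts of Tlx1 and Tlx2 spanned 4462 and 4908 bp, and the peak over the Lbx2 start only 720 bp. Listed peaks covered 48.3% of the Tlx1 and Lbx1 windows, 22.6% of the joined Tlx2 and Lbx2 windows and 28.9% of the Tlx3 window.

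**Figure D1:**
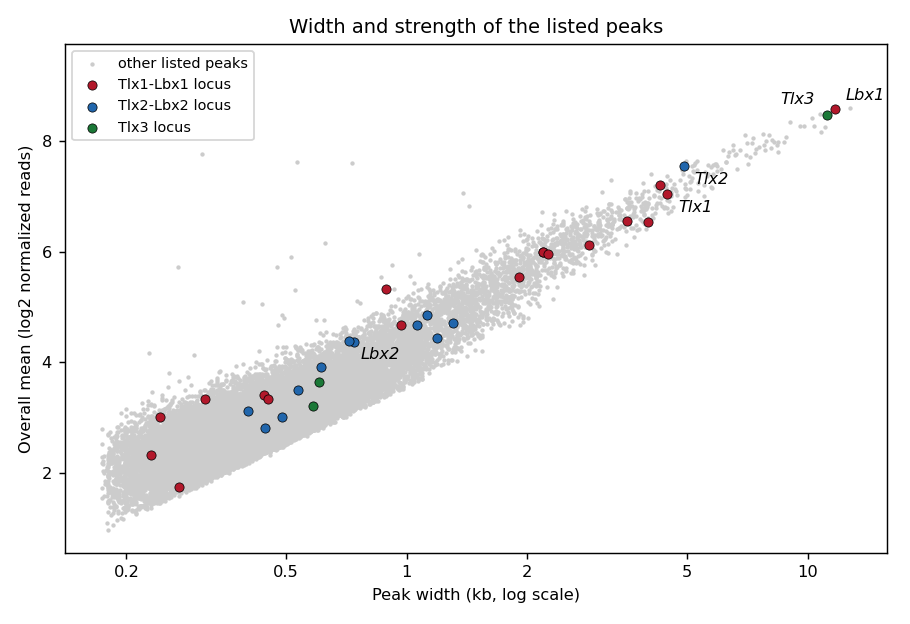
Overall mean (log2 normalized reads) against peak width (kb, log scale) for all 23668 listed peaks in grey and the 33 members in colour by locus, with the peaks over the 5 gene starts named. The peaks over Lbx1 and Tlx3 stand at the upper end of both axes, and that over the Lbx2 start lies among peaks under 1 kb.

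Of the 33 peaks, 23 had a lower mean after knockdown and 10 a higher one, which is 69.7% lower against 50.8% of all listed peaks. The median difference (knockdown minus control) was -0.16 on the log2 scale for the members and -0.02 for all listed peaks. Weak peaks varied most, so the 1362 peaks whose overall mean reached 5 on the log2 scale, called strong here, give a closer background. Of these 59.3% had a lower mean after knockdown, with a median difference of -0.10, and 11 of the 13 strong members were lower. Summed over all members, normalized reads came to 2118 in the control and 1913 after knockdown, or 90.3% of control, where a mean listed at 0 counts as 1 read. The same sum came to 97.1% of control for all listed peaks and to 92.9% for the strong ones.

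Differences of at least 1 on the log2 scale, a factor of 2, were few at these genes. Only 1 member was lower by that much and 3 were higher, 1 of these with the control listed at 0. Among all listed peaks 20.6% were lower and 20.4% higher by at least 1, and among strong peaks 3.01% and 1.25%. The members fell short of the share over all listed peaks in both directions, but they were also stronger, with a median strength of 4.68 against 2.93 (log2). Such differences were rarer among strong peaks, so the shortfall is not read as a trait of these genes. Among the 13 strong members 1 was lower by at least 1 and 0 were higher.

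**Figure D2:**
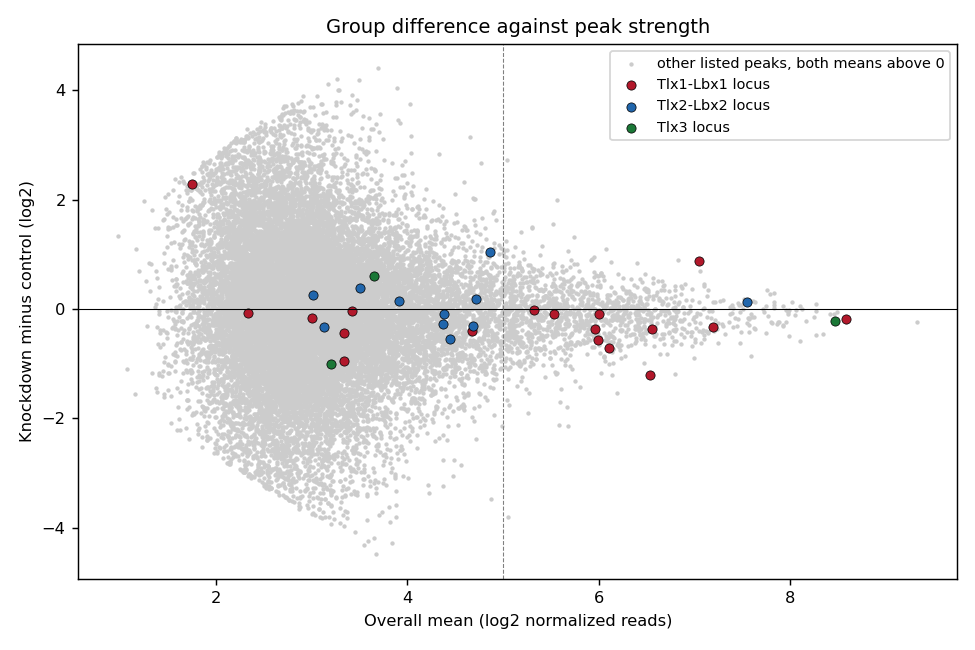
Difference of the group means (knockdown minus control, log2) against the overall mean (log2 normalized reads) for listed peaks with both means above 0, with the members in colour by locus and a dashed line at an overall mean of 5. The spread narrows to the right, where the peak upstream of Tlx1 lies at -1.20 and the Tlx1 start peak at 0.87, and most other strong members lie just below 0.

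Tlx1, which specifies the spleen and excitatory dorsal horn neurons, showed both the strongest lower and the strongest higher value among the strong members. Its start lay in a peak at chr19:45149560-45154021 that holds coding sequence and UTR of the gene (chr19:45150680-45156943, plus strand). The mean of that peak was 6.58 in the control and 7.45 after knockdown, or 95.6 and 175 normalized reads, a difference of 0.87. Of the 1362 strong peaks, 28 had a difference at least that high, this one included. Being the highest of the strong members, it was picked by the same values, and its rank was not tested. The Tlx1 start peak was the only strong peak of the Tlx1-Lbx1 locus with a higher mean after knockdown.

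The intergenic peaks upstream of Tlx1 differed in the other direction. The widest, at chr19:45140990-45144994, spans 4005 bp and ends 5686 bp before the gene start. Its mean was 6.97 in the control and 5.76 after knockdown, or 125 and 54.4 normalized reads, so the knockdown mean was 43.5% of control (-1.20). Of the strong peaks, 21 had a difference that low or lower, this one included. That rank belongs to the lowest of the strong members and was not tested either. Next to the start peak, the peak at chr19:45146422-45149272 (2851 bp, ending 1408 bp before the gene start) had means of 6.39 and 5.68, a difference of -0.71. Summed over the 7 peaks upstream of the start peak, normalized reads were 270 in the control and 160 after knockdown, or 59.3% of control, and 6 of the 7 were lower.

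The sign of the difference changed between the 2 peaks parted by the 287 bases shown above. Each mean covers a whole peak and the gap has no value, so the place of the change is unknown. The difference stepped by 1.58 on the log2 scale from the peak on one side to the peak on the other. Of 384 pairs of neighbouring strong peaks less than 5 kb apart, 6 (1.56%) had a step of that size or more, this pair included, and the median step was 0.39. This pair holds the highest difference among the strong members and has the largest step of the member pairs. Its rank is thus a description drawn from the same values and was not tested. On the other side of the start peak the step was 0.90 across 22 bases, a size reached by 55 of the 384 pairs. That second step lay below the 90th percentile of the pairs, 1.03. Without values per library, neither step could be tested.

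Downstream of the start peak all 5 peaks of the Tlx1 window had a lower mean after knockdown, though most by little. The peak at chr19:45154044-45154930, in an intron of Tlx1 and an exon of the antisense gene Tlx1os, had means of 5.33 and 5.31. The peak over the end of Tlx1 (chr19:45155175-45157362) had means of 6.04 and 5.95. The peak over the start of Tlx1os (chr19:45158552-45160734) was lower by more, with means of 6.22 and 5.65, a difference of -0.57. The farthest wide peak, at chr19:45163150-45165052, had means of 5.58 and 5.48. Together the downstream peaks came to 86.2% of control.

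The other 6 peaks of the Tlx1 window were under 1 kb. The peak at chr19:45132934-45133204, 17476 bp upstream of Tlx1, was weak and had means of 0.28 and 2.57, a difference of 2.28 from 1.22 and 5.92 normalized reads. The remaining 5 were all lower after knockdown, by differences of -0.44 to -0.03.

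**Figure D3:**
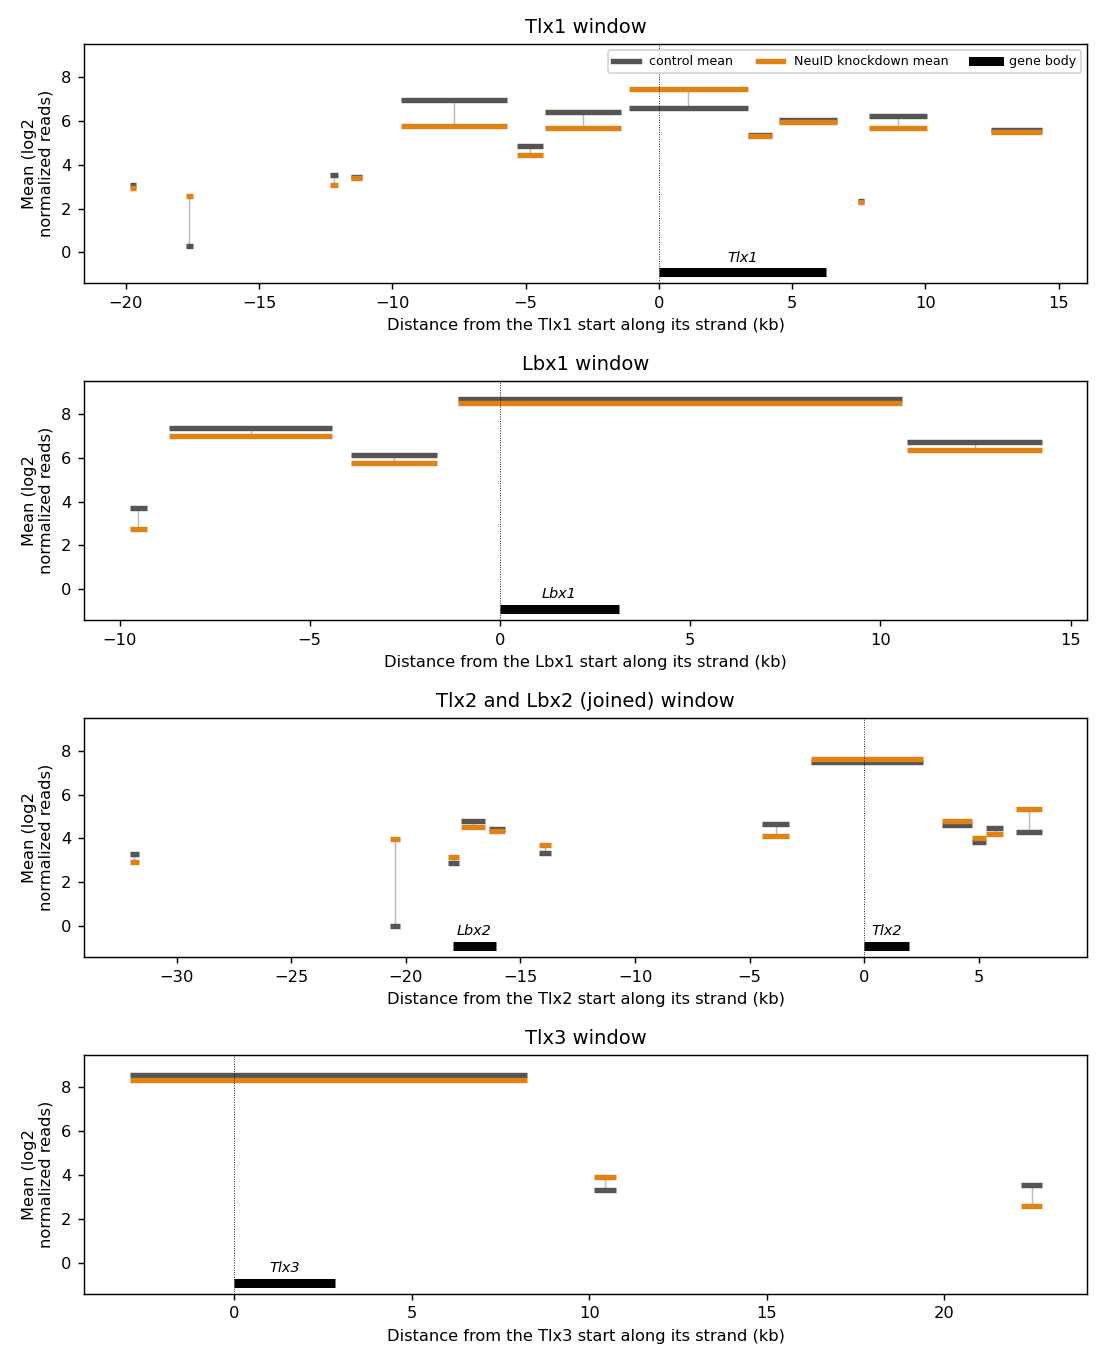
Mean H3K27me3 level (log2 normalized reads) of each member peak in the control (grey) and after NeuID knockdown (orange), drawn at its extent by distance (kb) from the start of Tlx1, Lbx1, Tlx2 or Tlx3 along that gene's strand, with gene bodies in black. At Tlx1 the knockdown mean lies below the control mean over the wide upstream peaks (6.97 and 5.76) and above it over the gene start (6.58 and 7.45), while at Lbx1 all 5 peaks lie lower. A mean listed at 0 is drawn at 0.

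Lbx1, required for inhibitory dorsal horn neurons and limb muscle precursors, had a lower mean after knockdown in all 5 peaks of its window. The peak over the whole gene (chr19:45225234-45236922; the gene lies at chr19:45232684-45235812, minus strand) had means of 8.66 and 8.48, or 405 and 356 normalized reads, a difference of -0.19. The peak beyond the end of the gene (chr19:45221566-45225102) had means of 6.71 and 6.34. Upstream, the peak at chr19:45237477-45239732 had means of 6.12 and 5.75, and the peak at chr19:45240217-45244500 had means of 7.33 and 7.01. These 3 flanking peaks differed by -0.37, -0.37 and -0.32, each by more than the peak over the gene. The small peak farthest upstream had means of 3.70 and 2.74 (-0.96).

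The Lbx1 window came to 83.2% of control in summed reads, 753 against 626. Strong peaks in general had a median difference of -0.10, with quartiles of -0.40 and 0.17, and came to 92.9% of control. Each of the 4 strong Lbx1 peaks lay below that median and inside the quartiles. Between the windows of Tlx1 and Lbx1, whose gene bodies lie 75740 bp apart, the table listed 1 more peak, of 327 bp, with means of 2.40 and 2.62.

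The Tlx1-Lbx1 locus as a whole had 16 of 18 peaks lower and came to 86.0% of control, a log2 ratio of -0.22 (1352 and 1163 normalized reads). This value rests on what is counted. Without the Tlx1 start peak the locus came to 78.6% of control (-0.35), and without the widest upstream peak to 90.4% (-0.15). Counting peaks over the 2 gene bodies alone turned the ratio to 0.06.

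Tlx2, which acts in enteric neurons, had nearly equal means in both groups. The peak over the whole gene (chr6:83067704-83072611; the gene lies at chr6:83068324-83070293, minus strand) had means of 7.49 and 7.61, or 180 and 196 normalized reads, a difference of 0.12. Beyond the end of the gene, in an intron of Dqx1, the peak at chr6:83062528-83063653 had means of 4.29 and 5.34, a difference of 1.05. The peak at chr6:83065575-83066876, over coding sequence and UTR of Dqx1, had means of 4.63 and 4.81. Upstream of Tlx2, the peak at chr6:83073547-83074734, over an exon of Gm37092, had means of 4.67 and 4.13 (-0.54). The start of Pcgf1, a Polycomb gene between Tlx2 and Lbx2, lay in no listed peak.

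At Lbx2, the paralog of Lbx1, the peaks over the gene had lower means in both groups than the peak over Lbx1. These peaks differed by -0.31 to 0.26, against -0.19 for the peak over Lbx1. They were also narrower, and means that are not divided by width grow with it, so levels per kb are given below. The peak over the Lbx2 start (chr6:83085970-83086689; the gene lies at chr6:83086367-83088243, plus strand) had means of 4.42 and 4.33, a difference of -0.09. The peak inside the gene (chr6:83086829-83087887) had means of 4.81 and 4.50. Farther on, 4169 bp downstream of the Lbx2 start, an intergenic peak of 443 bp (chr6:83090536-83090978) was listed at 0 in the control and at 3.95 after knockdown, or 15.5 normalized reads. No fold is given for it. The remaining 5 peaks under 1 kb at this locus differed by -0.33 to 0.38.

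The Tlx2-Lbx2 locus had 5 peaks lower and 7 higher, and came to 111% of control (0.15, from 364 and 404 normalized reads). With both means above 0 required, the ratio was 0.10.

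Tlx3, which favours excitatory over inhibitory fate in the dorsal spinal cord, lay in a single peak at chr11:33195356-33206536 that also covers the start of the long noncoding RNA Gm12116. Its means were 8.57 and 8.34, or 380 and 325 normalized reads, a difference of -0.23. The other peaks of the Tlx3 window were weak. The one at chr11:33180837-33181420 had means of 3.57 and 2.58, a difference of -0.997 that fell just short of the limit of 1. The one at chr11:33192849-33193453 had means of 3.34 and 3.94. The locus came to 86.1% of control, with a log2 ratio of -0.22, and 94.5% of its control reads came from the peak over the gene.

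**Figure D4:**
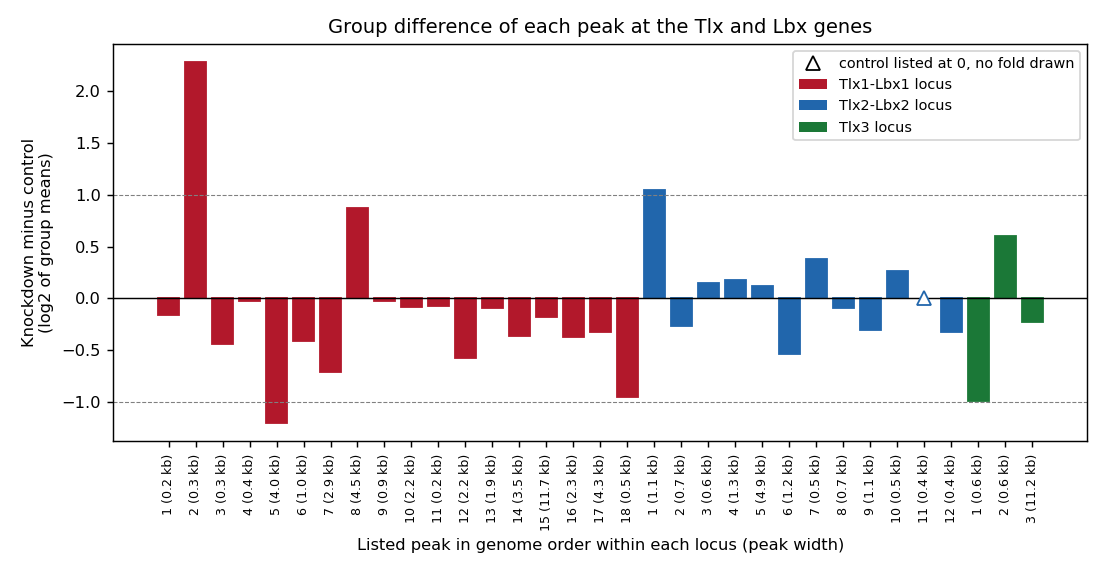
Difference of the group means (knockdown minus control, log2) for each of the 33 member peaks in genome order within the Tlx1-Lbx1, Tlx2-Lbx2 and Tlx3 loci, with the peak width under each bar and dashed lines at -1 and 1. In the Tlx1-Lbx1 locus 16 of 18 bars lie below 0, against 5 of 12 in the Tlx2-Lbx2 locus, where the peak with the control listed at 0 is marked by an open triangle without a bar.

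Set side by side, the Tlx1-Lbx1 locus had 16 peaks lower and 2 higher, and the other loci together 7 lower and 8 higher. In summed reads the Tlx1-Lbx1 and Tlx3 loci came to almost the same share of control, 86.0% and 86.1%, and the Tlx2-Lbx2 locus to 111%. Peaks of a locus share libraries and lie next to each other, so these counts are not replicates and were not tested. Among the strong members, 10 of 11 in the Tlx1-Lbx1 locus were lower, and the 1 strong peak of each other locus was higher at Tlx2 and lower at Tlx3. These directions depended on the window. Over gene bodies alone the log2 ratio was 0.061 for Tlx1-Lbx1, 0.063 for Tlx2-Lbx2 and -0.23 for Tlx3, so that Tlx3 was then the locus with the other sign.

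**Figure D5:**
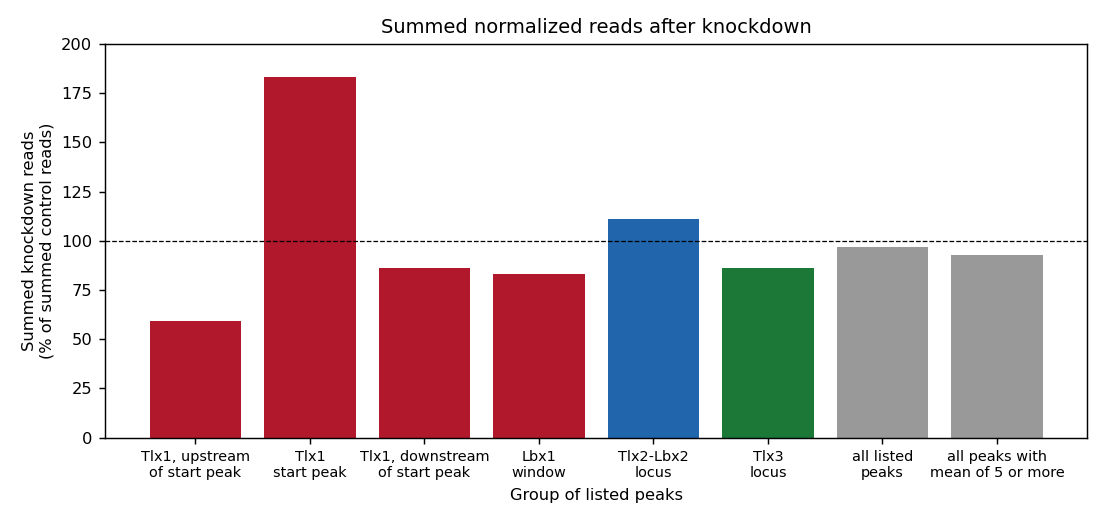
Summed normalized reads after knockdown as a percentage of the control sum, for the parts of the Tlx1 window, the Lbx1 window, the other loci and all listed peaks, with a dashed line at 100. The peaks upstream of the Tlx1 start peak came to 59.3% and the start peak to 183%, while the Lbx1 window, at 83.2%, and the Tlx3 locus, at 86.1%, lay nearer to the strong peaks in general, at 92.9%.

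Since peaks differ in width, levels at the 5 starts were also compared per kb of peak. In the control, the start peak of Tlx2 had 36.7 normalized reads per kb, that of Lbx1 34.6, that of Tlx3 34.0, that of Lbx2 29.8 and that of Tlx1 21.4. After knockdown the values were 39.9 for Tlx2, 39.3 for Tlx1, 30.5 for Lbx1, 29.0 for Tlx3 and 27.9 for Lbx2. Tlx1 moved from the lowest of the 5 to next below Tlx2, and the order of the other 4 was the same in both groups. The wide peak upstream of Tlx1 went the other way, from 31.2 to 13.6 reads per kb. Without values per library, it is unknown which neighbours in this order differ beyond their spread.

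The 20 kb windows ended near listed peaks at few places. Just inside the upstream edge of the Tlx1 window, a peak of 243 bp had means of 3.08 and 2.92, and just outside it, by 669 bp, a peak of 201 bp had means of 2.99 and 0.97. At the Tlx3 window, the peak already given at 3.57 and 2.58 lay 85 bp inside the edge. The nearest peak beyond the Lbx2 window, 27162 bp farther on, had means of 3.73 and 4.45.

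Genes of the same class and of the same neural programme were counted in the same way. Around 42 other NK-like homeobox genes, of which 32 had their start in a listed peak, 264 of 434 peaks were lower and 170 higher, 72 and 38 by at least 1. Their median difference was -0.18 and their summed reads came to 91.4% of control. The gene with the strongest peak was Hmx1, with means of 8.51 and 8.46. Vax2 (8.03 and 7.93), Nkx2-5 (7.90 and 7.96) and Nkx2-3 (7.82 and 7.84) followed. Around 26 genes that specify dorsal spinal cord and hindbrain neurons, of which 23 had their start covered, 169 of 302 peaks were lower and 133 higher, 51 and 38 by at least 1, with a median of -0.15 and 92.6% of control. Among these, Lhx5 had means of 8.29 and 8.25, Pax7 of 7.96 and 7.94, Isl2 of 7.70 and 7.41, and Lmx1b of 7.66 and 7.40. Of all listed peaks 20.6% were lower and 20.4% higher by at least 1, and both lists fell short of these shares. Peaks of the lists were also stronger, with medians of 3.92 and 3.98 (log2) against 2.93. The shortfall is thus not read as a trait of these genes. The members' median of -0.16 lay between those of the lists, whereas their summed reads, at 90.3% of control, lay below both. Among strong peaks the median was -0.23 for the 13 members, -0.13 for 110 peaks of the NK-like list and -0.03 for 79 of the dorsal list. The shares lower were 84.6%, 66.4% and 55.7% in that order. These differences between lists were not tested.

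Sequence features of the members varied with their width and place, and also differed from those of all listed peaks. The ratio of observed to expected CpG was 0.53 over the Tlx1 start peak, 0.57 at Lbx1, 0.62 at Tlx2, 0.59 at Tlx3 and 0.45 over the narrower Lbx2 start peak, against 0.31 in the widest peak upstream of Tlx1. The members' median was 0.29 and that of all listed peaks 0.22. Among peaks of at least 1 kb the members' median was 0.36 and that of all such peaks 0.48. The wide members below that value lay over no start of the 5 genes, while the Lbx2 start peak, which is under 1 kb, was also below it.

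The homeodomain core TAATTA, which reads the same on both strands, occurred in 30.3% of the members and in 9.63% of all listed peaks. Members are wider, and per kb the motif occurred 0.26 times in members and 0.20 times in all peaks. Among peaks of at least 1 kb it occurred in 43.75% of the 16 members and 24.9% of all such peaks. Under 1 kb it occurred in 17.6% of the 17 members and 7.98% of all such peaks. These shares were not tested. GAGAG, searched on both strands, occurred in 90.9% of the members and 77.2% of all peaks, or 5.59 and 5.06 times per kb. Neither the Tlx1 nor the Tlx3 promoter window held TAATTA, which 5.29% of all promoters in the RefSeq table held. They held GAGAG 5 and 3 times, and 62.0% of all promoters held it at least once. These are matches of letters and not sites of a factor.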

How the data were processed

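H3K27me3 ChIP-seq of control and NeuID knockdown neurons was analysed from the table the authors deposited. The authors used bowtie2 to map single-end reads to mm10, MACS2 to call broad peaks and DiffBind to compare groups. The authors deposited log2 means of normalized reads per peak, over all libraries and per group. The normalization, merging of peaks, removal of duplicates and use of the inputs are not given in the sources used here, and each can alter weak peaks most. The table's 3 columns of the authors' own comparison (fold, p-value and FDR) were not used. These are group means without values per library, so no interval is given. Depth per sample is also unknown.

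Here, the difference was the knockdown minus the control log2 mean. Genes were taken from GENCODE M21 and sequence from GRCm38. A peak belonged to a gene if at least 1 base lay in its body or the 20 kb beside it. Named were all member genes, with peaks of at least 1 kb, over a start, past the limit of 1 or listed at 0 given singly, neighbours whose start a peak covers, and the 4 genes with the strongest peak of each other list. Further genes were named after their values were seen: Dqx1, Gm37092 and Pcgf1. Reads were summed after undoing the log2. The members and lists were chosen with earlier results of these data known. Windows, filters, limits and scalings were varied. The counting of peaks past the limit was checked on simulated peaks with known differences, which is no test of the groups. Python 3.11.15, numpy 2.4.6, pandas 2.3.3 and matplotlib 3.10.9 were used.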

Additional observations from a re-analysis of the deposited data

How the results depend on the processing

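The share of lower peaks stayed between 63.4% and 80.0% under all 8 alternatives run on it. The count at least 1 lower, 1 in the report, was 0 over gene bodies, 0 within 5 kb, 2 within 50 kb, 4 at a 1.5-fold limit and 0 at a 4-fold limit. The count at least 1 higher, 3 in the report, was 0 over gene bodies, 1 at an overall mean of at least 4, 1 among peaks of at least 1 kb and 5 at a 1.5-fold limit. The Tlx1-Lbx1 log2 ratio of -0.22 became 0.061 over gene bodies, -0.13 within 5 kb, -0.20 within 50 kb, -0.20 when centred on the median difference and -0.17 when divided by the total of all peaks. Chosen after seeing the data, leaving out the Tlx1 start peak gave -0.35 and leaving out the widest upstream peak -0.15. The Tlx2-Lbx2 ratio of 0.15 became 0.063 over gene bodies, 0.16 within 5 kb, 0.19 within 50 kb, 0.10 with both means above 0, 0.093 at an overall mean of at least 4, 0.13 among peaks of at least 1 kb, 0.17 when centred and 0.19 when divided by the total. The Tlx3 ratio of -0.22 became -0.23 over gene bodies, within 5 kb, at an overall mean of at least 4 and among peaks of at least 1 kb, -0.20 when centred and -0.17 when divided by the total. No paired analysis was possible because the table gives group means only, and for the same reason no library could be left out.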
